A study of Drosophila melanogaster with 4 samples.

Results

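Chromosome 4 of Drosophila melanogaster was examined in consecutive windows of 5 kb for H3K36me1, a histone H3 carrying 1 methyl group on lysine 36. The 271 windows run from base 1 to base 1351857, the end given in the file headers, and the last window is shorter (1857 bases). They are 271 of the 33750 such windows of all sequences in the headers. Windows were chosen by position alone, and the 15094 windows of arms 2L, 3L and 3R served for comparison. Heads of wild-type Oregon-R flies (strain Oregon-R-modENCODE, stage given as mixed adult) were profiled by chromatin immunoprecipitation and sequencing (ChIP-seq), with 2 ChIP replicates and 2 input replicates. Flies came from population cages and heads were separated by sieving, so each library pools many animals and all cell types of the head. The labels do not state the sex of the flies.

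Chromosome 4, the dot chromosome, is a short autosome whose gene-bearing part lies in a heterochromatin-like setting. HP1a and methylation of H3 lysine 9, made there by Eggless, cover much of it, and the chromosome-specific protein POF binds its active genes. Many of its genes are nevertheless transcribed, among them the eye-specifying genes ey and toy, the Hedgehog pathway factor ci, the muscle gene bt, and the neuronal genes CaMKII and mGluR. The gene table used here lists 80 protein-coding genes among 114 genes on chromosome 4, in release 6 of the genome. In flies the enzymes NSD and Ash1 place lower methyl states of H3 lysine 36, while Set2 makes the trimethyl state over transcribed genes. H3K36me1 has been described in fly cell lines over introns and enhancer-like regions of active genes. The cluster lists use FlyBase release 5 coordinates, so clusters were not assigned to genes, and the head label could not be checked against marker genes.

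The authors deposited a list of enriched regions, called clusters, for each ChIP replicate and a combined list for the set of replicates. Each cluster has a start, an end and a score without a stated unit. Replicate 1 held 5477 clusters, of which 31 lay on chromosome 4. Replicate 2 held 5412 clusters with 33 on chromosome 4, and the combined list held 7567 with 44. The lists hold no read counts and the depth is unknown, so a window outside the clusters is not shown to lack the mark. A mark on fewer cells and less mark per cell cannot be told apart in whole heads. Chromosome 4 is 1 chromosome measured in 2 replicates of 1 group, and windows and clusters are not replicates. The values below are therefore descriptions without a p-value (a sign test over 2 replicates cannot go below 0.5), and no label marks the replicates as separate collections, so their spread may be technical.

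Few windows of chromosome 4 held H3K36me1 clusters. In the replicates those that did were filled about as far as occupied windows of the arms or somewhat less far. In every list a smaller share of them was wholly covered. In replicate 1, 47 of 271 windows held at least 1 base in a cluster (17.3%), against 38.1% of the windows of 2L, 3L and 3R. In replicate 2 it was 54 windows (19.9%), against 37.3%. In the combined list it was 64 windows (23.6%), against 49.7%. The chromosome 4 share was below that of each of the 3 arms in all 3 lists. The ratio to the arms was 0.456 in replicate 1 and 0.534 in replicate 2, a mean of 0.495 ± 0.0553 (SD, n = 2). The spread between replicates was small beside the distance of this ratio from 1. This spread does not measure how far stretches of this length differ along the arms, for which blocks are given below.

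Windows at least 50% covered numbered 29 (10.7%) in replicate 1 and 33 (12.2%) in replicate 2, against 24.5% and 23.4% on the arms. Windows wholly inside clusters numbered 12 and 14, or 4.43% and 5.17%, against 11.2% and 10.5%. In the combined list 44 windows were at least 50% covered and 16 were wholly covered, where the arms had 32.3% and 15.5%. The ratio of these shares to those of the arms lay between 0.380 and 0.520. For wholly covered windows it was 0.394 and 0.494 in the replicates and 0.380 in the combined list. In each list that was below the ratio of all occupied windows. Among the occupied windows alone, the median covered share was 61.0% in replicate 1 against 71.0% on the arms, and 63.6% against 68.1% in replicate 2. The share of occupied windows at least 50% covered was 61.4% ± 0.418 on chromosome 4 and 63.5% ± 1.11 on the arms (SD, n = 2 each). In bases, clusters of the replicates spanned 150.9 and 170.2 kb of chromosome 4, and those of the combined list spanned 214.0 kb.

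**Figure D1:**
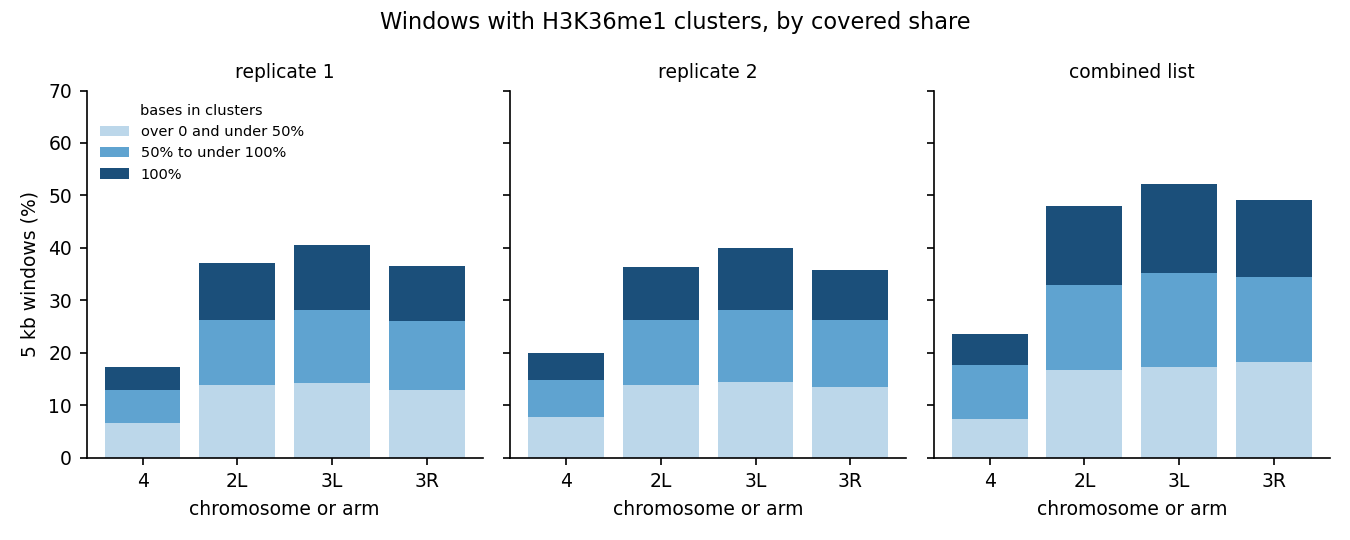
Percent of 5 kb windows (y axis) with H3K36me1 clusters on chromosome 4 and arms 2L, 3L and 3R (x axis) in each list, stacked by the share of their bases inside clusters; empty windows are not drawn. Chromosome 4 reaches 17.3% and 19.9% in the replicates, while each arm lies above 35%.

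The occupied windows lay in a few compact places. When clusters of any list were joined over gaps under 25 kb, a limit chosen after the positions were seen, 9 groups resulted and spanned 310.9 kb, or 23.0% of the chromosome. Limits of 10 and 50 kb gave 13 and 8 groups. All clusters of the replicates fell in 7 of the 9 groups, and the other 2 held 1 cluster each of the combined list alone. The 3 groups with a stretch of at least 10 kb inside clusters of both replicates span 164.0 kb. They held 72.2% of the covered bases of chromosome 4 in replicate 1 and 68.0% in replicate 2. No arm value stands beside these shares, so they do not set chromosome 4 apart from the arms. When the chromosome was cut into 4 equal parts, clusters covered, from base 1 on, 4.77% ± 0.437, 15.3% ± 1.42, 24.9% ± 1.42 and 2.47% ± 0.750 (SD, n = 2 each). The inner parts were thus covered more than the outer ones in both replicates, and the third part reached the level of the arms (24.6% ± 0.652).

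**Figure D2:**
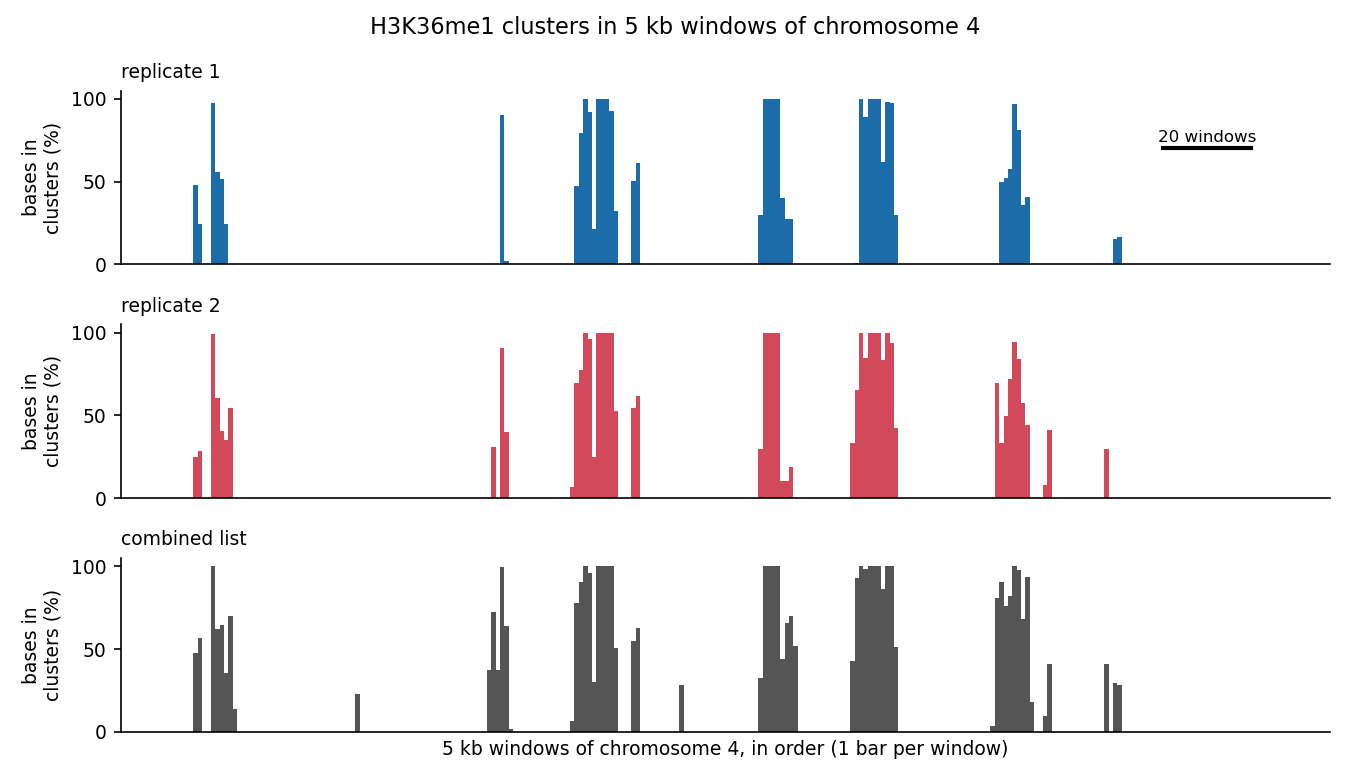
Percent of bases inside H3K36me1 clusters (y axis) in each of the 271 windows of chromosome 4 in order (x axis), for replicate 1, replicate 2 and the combined list. Most bars stand in the same few places in all 3 lists, with long empty runs between them and at both ends. Some are absent from a replicate or stand in the combined list alone.

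The group at 4:504658-578127 held the most covered bases in each replicate, and in the combined list it came next to the group at 4:822743-873017 (48.6 kb). It carried 6 clusters in each list, which covered 43.8 and 47.1 kb of its 73.5 kb in the replicates and 48.5 kb in the combined list. Its widest stretch inside clusters of both replicates was 4:529675-549356 (19.7 kb), with scores of 0.851 in replicate 1 and 0.880 in replicate 2. The cluster of replicate 1 stopped there, while that of replicate 2 ran on to base 552637, over ground that replicate 1 gave to a separate narrow cluster. A second wide stretch, 4:511374-522275 (10.9 kb), scored 0.769 and 0.815. Next to it lay 4:522734-525715 (2.98 kb), with 0.670 and 0.840, and farther along 4:572489-578049 (5.56 kb), with 0.691 and 0.719. Each of the 4 stretches scored higher in replicate 2.

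The group at 4:822743-873017 was the most densely filled of those found in both replicates, with 77.3% of its 50.3 kb inside clusters in replicate 1 and 89.8% in replicate 2. Its widest shared stretch, 4:839709-855093 (15.4 kb), scored 0.688 in replicate 1 and 0.881 in replicate 2. The parent cluster of replicate 2, 4:839639-855093, was the top-scoring cluster of chromosome 4 in that list. The list of replicate 1 gave the same stretch the 57.0th percentile of arm clusters of all widths, although the ends agreed within 100 bases. Among wide clusters its score was low, since arm clusters of at least 10 kb in replicate 1 scored 0.676 or more, with a median of 1.10. Further shared stretches were 4:829947-838874 (8.93 kb, 0.733 and 0.863) and 4:857042-861366 (4.33 kb, 0.765 and 0.781). The stretch 4:861464-865200 (3.74 kb) scored 0.719 in replicate 1 and belonged to the same cluster of replicate 2 as the stretch before it. In the combined list 96.6% of the group lay in clusters.

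The widest shared stretch of the chromosome, 4:718512-740476 (22.0 kb), formed a single cluster in every list. It scored 0.852 and 0.873 in the replicates and 0.849 in the combined list, and was the top-scoring cluster of chromosome 4 in replicate 1 and in the combined list. The replicates placed its start 4 bases apart and its end 39 bases apart. Narrow clusters followed it up to base 758656, with 2 and 1 of them in the replicates and 4 in the combined list. This domain was thus delimited alike in both replicates. Of the narrow clusters beside it, 4:749176-751376 of replicate 1 overlapped 4:749492-750948 of replicate 2. Their starts were 316 and their ends 428 bases apart. The other narrow cluster of replicate 1, 4:743462-745556, had no partner in replicate 2.

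The remaining groups were made of narrower clusters. The group at 4:984828-1047063 held 9 clusters in replicate 1 and 10 in replicate 2, which covered 20.7 and 27.7 kb of its 62.2 kb, and its widest shared stretch was 4:1005246-1009848 (4.60 kb, 0.737 and 0.812). The group nearest to base 1, at 4:72605-115695, held 5 and 4 clusters over 15.1 and 17.2 kb. Its widest shared stretch, 4:90081-94952 (4.87 kb), scored 0.770 in replicate 1 and 0.679 in replicate 2, the lone named stretch with a higher score in replicate 1. The group at 4:407253-430092 held 1 cluster in replicate 1 and 3 in replicate 2, and shared 4:420477-425092 (4.62 kb, 0.674 and 0.766). Clusters of at least 10 kb held 45.1% and 48.0% of the covered bases of chromosome 4 in the replicates, against 51.4% and 49.8% on the arms.

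The outermost group, at 4:1110251-1126419, was not shared. Replicate 1 had a cluster at 4:1124236-1125832 (score 0.647) and replicate 2 had one at 4:1110307-1111799 (score 0.549), with no base in common. The combined list kept both places. Over the whole chromosome, 29 stretches lay in clusters of both replicates and summed to 141.3 kb, with a median width of 2.47 kb. The 4 stretches of at least 10 kb held 48.1% of the shared bases and the 12 named here held 76.1%. Windows wholly covered in both replicates numbered 12, or 4.43%, against 9.50% on the arms. They lay at 4:720001-740000 (4 windows), 4:530001-545000 (3), 4:840001-855000 (3), 4:515001-520000 (1) and 4:830001-835000 (1), all inside the 5 widest shared stretches.

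Between the groups and at both ends, chromosome 4 was empty over long distances in all 3 lists. The longest stretch without a cluster in any list was its end, 4:1126420-1351857 (225.4 kb). The next were 4:256566-407252 (150.7 kb), 4:115696-255416 (139.7 kb), 4:873018-984827 (111.8 kb) and 4:627480-718382 (90.9 kb). These 5 stretches made up 53.2% of the chromosome. Stretches of at least 50 kb without a cluster in any list numbered 9 and made up 73.5% of chromosome 4, against 30.2% of the arms. They include both ends of chromosome 4 (225.4 and 72.6 kb). Between clusters alone, stretches of at least 50 kb made up 51.4% against 29.6% in the combined list. In the replicates it was 61.9% and 56.2%, against 42.7% and 44.7%, a smaller contrast. By windows, 207 of 271 (76.4%) held no cluster in any list, against 50.2% on the arms. Longer stretches occurred on the much longer arms, up to 435.9 kb on 2L.

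Empty windows of chromosome 4 came in long runs. In replicate 1, 97.8% of them lay in runs of at least 10 windows, against 68.5% on the arms, and in replicate 2 the shares were 95.9% and 68.6%. The arms had a larger share of occupied windows, and how much of this difference goes with occupancy was not tested. Occupied windows formed 9 runs in replicate 1 and 11 in replicate 2, with a mean length of 5.22 and 4.91 windows. On the arms the mean was 4.85 and 4.61 windows. Isolated occupied windows were 0 of the 9 runs in replicate 1 and 2 of the 11 in replicate 2, against 273 of 1185 and 304 of 1221 on the arms. The mean length of occupied runs was thus close to that of the arms. The medians differed in direction, with 4 windows against 3 in replicate 1 and 2 against 3 in replicate 2. The number of runs is set against blocks of the same length below.

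To see where a chromosome of this length lies within the arms, 2L, 3L and 3R were divided into 55 consecutive blocks of 1351857 bases. Chromosome 4 was covered to 11.2% in replicate 1, where the blocks ranged from 1.33% to 45.1% with a median of 25.4%. In replicate 2 it was covered to 12.6%, where the blocks ranged from 1.86% to 44.9% with a median of 24.6%. The blocks below chromosome 4 numbered 4 in replicate 1 and 6 in replicate 2. The 4 below it in both replicates comprised the block nearest the centromeric end of 2L, that of 3L, and 2 blocks inside 3R, at 3R:8111143-9462999 and 3R:12166714-13518570. Low cover of this degree therefore also occurred in a few blocks of the arms. The longest run of empty windows had 62 and 59 windows in the replicates and 45 in the combined list, where the medians of the blocks were 32, 33 and 24. It was longer than in 50 of 55 blocks in each list. In the 4 blocks of lower cover named above, the longest run had 166, 223, 47 and 71 windows in replicate 1. In replicate 2 it had 108, 104, 47 and 70. All of them but the block at 3R:8111143-9462999 thus had longer empty runs than chromosome 4. The number of occupied runs also set chromosome 4 low, with 1 of 55 blocks having fewer runs than chromosome 4 in each list.

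Scores told chromosome 4 from the arms at the top of the range. Its highest score was 0.852 in replicate 1 and 0.881 in replicate 2, and the combined list gave 0.849. Each of the 55 blocks had a higher top score in each list, with the lowest block at 0.895, 1.00 and 0.969. Most blocks hold more clusters than chromosome 4 and so have more chances of a high score. The blocks with no more clusters than chromosome 4, numbering 2 and 4 in the replicates and 1 in the combined list, also had higher top scores, of at least 0.895, 1.11 and 1.16. No cluster of chromosome 4 reached a score of 1 in any list, which 13.2% and 11.1% of arm clusters did in the replicates and 6.52% did in the combined list.

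**Figure D3:**
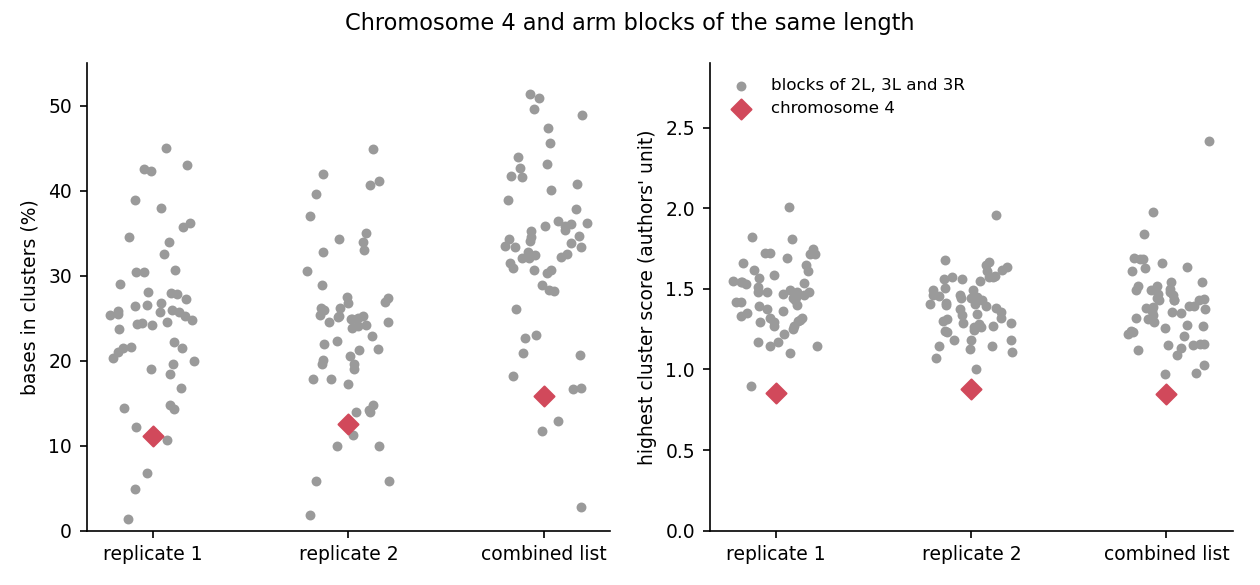
Percent of bases inside H3K36me1 clusters (left y axis) and highest cluster score in the authors' unit (right y axis) in each list (x axis), for chromosome 4 (diamond) and 55 consecutive blocks of its length on 2L, 3L and 3R (points, spread sideways at random). Chromosome 4 lies above 4 blocks in cover in replicate 1 and below all 55 in highest score in every list.

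Clusters of chromosome 4 had about the median width of arm clusters and a somewhat lower median score. The median widths of 2651 and 2680 bases in the replicates stood against 2784 and 2677 bases on the arms, a mean ratio of 0.977 ± 0.0345 (SD, n = 2). Clusters of at least 10 kb made up 4 of 31 and 5 of 33 (12.9% and 15.2%), against 13.4% and 12.5% on the arms. The median score was 0.600 against 0.658 in replicate 1, and 0.593 against 0.617 in replicate 2. The difference, chromosome 4 minus arms, was -0.0584 and -0.0236, a mean of -0.0410 ± 0.0246 (SD, n = 2). It was below 0 against each arm in each list, but among clusters of at least 3 kb the combined list gave 0.0488, with chromosome 4 higher. Clusters were fewer on chromosome 4, with 22.9 and 24.4 per Mb against 43.8 and 44.0 per Mb.

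In the replicates the score gap was widest among clusters of at least 10 kb. Score rose with width. The rank correlation (Spearman) over the clusters of chromosome 4 was 0.881 in replicate 1 (n = 31 clusters) and 0.820 in replicate 2 (n = 33 clusters), against 0.823 and 0.839 on the arms, where clusters of a list share a library. Clusters of at least 10 kb on chromosome 4 scored 0.688, 0.769, 0.851 and 0.852 in replicate 1, where the median of 442 such arm clusters was 1.10. In replicate 2 the 5 scored from 0.815 to 0.881, where the median of 416 arm clusters was 1.05. All of these wide clusters lay below the arm median of their list, and so did the 6 of the combined list. This class has no upper limit and was not matched for width. Of its arm clusters, 149 in replicate 1 and 126 in replicate 2 were wider than the widest on chromosome 4 (22.0 and 23.0 kb). How much of the gap in this class goes with width was not tested. For clusters of 5 to 10 kb (4 and 3 in the replicates) the difference of medians was -0.118 and -0.0895, while in the combined list (7 clusters) it was 0.0320, with chromosome 4 higher. For clusters of 2 to 5 kb (16 in each replicate on chromosome 4) the difference of medians was smaller, at -0.0728 and -0.0315. In clusters under 2 kb it was -0.0871 in replicate 1 (7 clusters) and -6.2e-05 in replicate 2 (9 clusters), so in replicate 1 the gap was not smallest in the narrowest clusters.

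**Figure D4:**
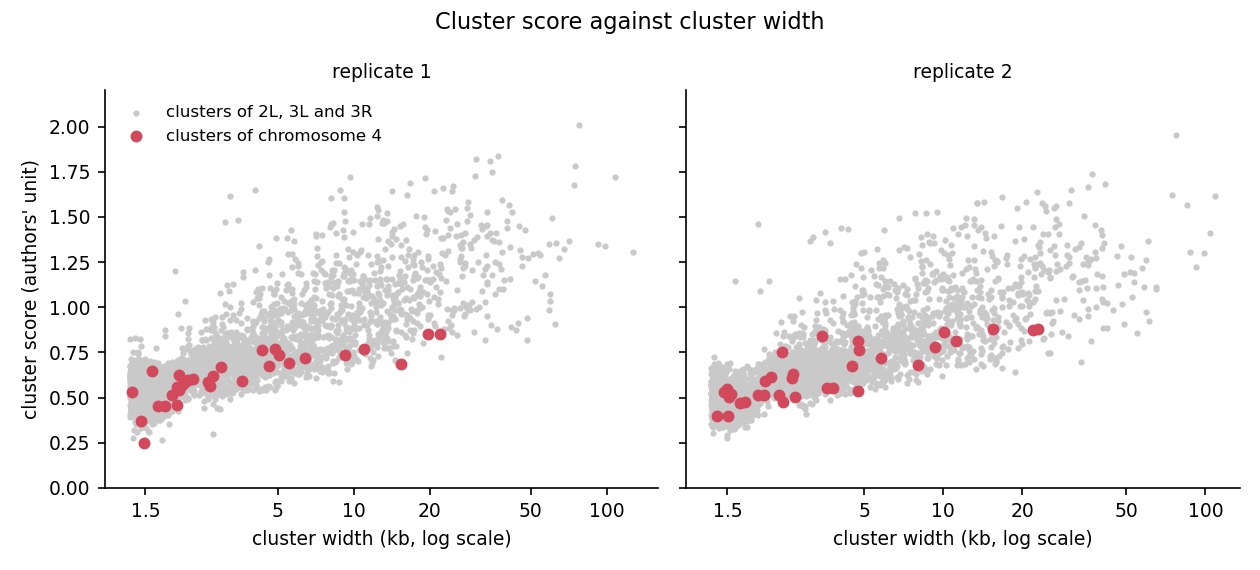
Cluster score in the authors' unit (y axis) against cluster width in kb on a log scale (x axis) in each replicate, with clusters of chromosome 4 as large points and those of 2L, 3L and 3R as small points. The chromosome 4 clusters of at least 10 kb all score below 0.9 and below the median of arm clusters of at least 10 kb. These arm clusters include many that are wider than any on chromosome 4.

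Seen by window, the highest score among the clusters touching an occupied window had a median of 0.691 on chromosome 4 and 0.838 on the arms in replicate 1. In replicate 2 the medians were 0.760 and 0.781. In the combined list they were 0.645 and 0.617, so this median was higher on chromosome 4 there. In every list many arm windows exceeded the top of chromosome 4, 48.8% and 39.9% of the occupied ones in the replicates and 32.1% in the combined list. The ceiling of the scores was shared by the 3 lists, and the direction of the window median was not.

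The replicates marked mostly the same windows. Of the 56 windows occupied in either replicate, 45 were occupied in both (80.4%), against 81.9% on the arms. These 45 are 16.6% of the windows of chromosome 4, against 33.9% of arm windows occupied in both. Windows at least 50% covered in both numbered 27 (9.96%), against 21.6%. Across all 271 windows Pearson r between the covered shares was 0.949 and Spearman rho was 0.899, and 215 of these windows were empty in both. Over the 56 windows occupied in either, Pearson r was 0.863, close to the 0.852 of the arms. Agreement by window was thus similar on chromosome 4 and the arms.

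The windows marked in a single replicate leaned to replicate 2. They numbered 9 in replicate 2 and 2 in replicate 1, while on the arms 512 were in replicate 2 alone and 623 in replicate 1 alone. The largest differences were at 4:985001-990000, with 0% in replicate 1 and 69.2% in replicate 2, at 4:825001-830000, with 1.08% and 65.5%, and at 4:110001-115000, with 0% and 54.3%. All 11 windows also held combined clusters. Of the clusters of replicate 1, 28 of 31 (90.3%) overlapped the list of replicate 2 by at least 1 base, while 23 of 33 (69.7%) of replicate 2 overlapped that of replicate 1. On the arms the shares were 80.2% and 84.6%. The 10 clusters of replicate 2 without a partner were narrow, at most 2716 bases, and scored at most 0.549.

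The replicates also differed in direction between chromosome 4 and the arms. Covered bases were higher in replicate 2 by 1.42 percentage points on chromosome 4, and lower in replicate 2 on each arm, by 1.03 points on 2L, 0.724 on 3L and 1.01 on 3R, given as the size of the fall. Of the 55 blocks, 14 were higher in replicate 2 and 1 by more than chromosome 4. For scores, 17 pairs of clusters overlapped one to one on chromosome 4, and 13 of them (76.5%) scored higher in replicate 2, with a median difference, replicate 2 minus replicate 1, of 0.0381. On the arms 567 of 1775 pairs (31.9%) scored higher in replicate 2, with a median difference of -0.0415. The largest share in any block was 50.0%.

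Scores of chromosome 4 covered a narrower range, so arm pairs were also limited to its range of replicate 1 scores. Of these 1279 pairs, 36.7% scored higher in replicate 2. Among pairs at least 4 kb wide in replicate 1, a width chosen after the values were seen, all 7 on chromosome 4 scored higher in replicate 2, by 0.0210 to 0.193, against 148 of 673 on the arms (22.0%). These are few pairs, and clusters that did not overlap one to one are outside them, such as the one over 4:90081-94952, which scored higher in replicate 1. With 1 library per replicate, what this difference comes from was not tested. It does not touch the comparison with the arms in direction, since chromosome 4 was lower in cover and in highest score in each replicate.

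**Figure D5:**
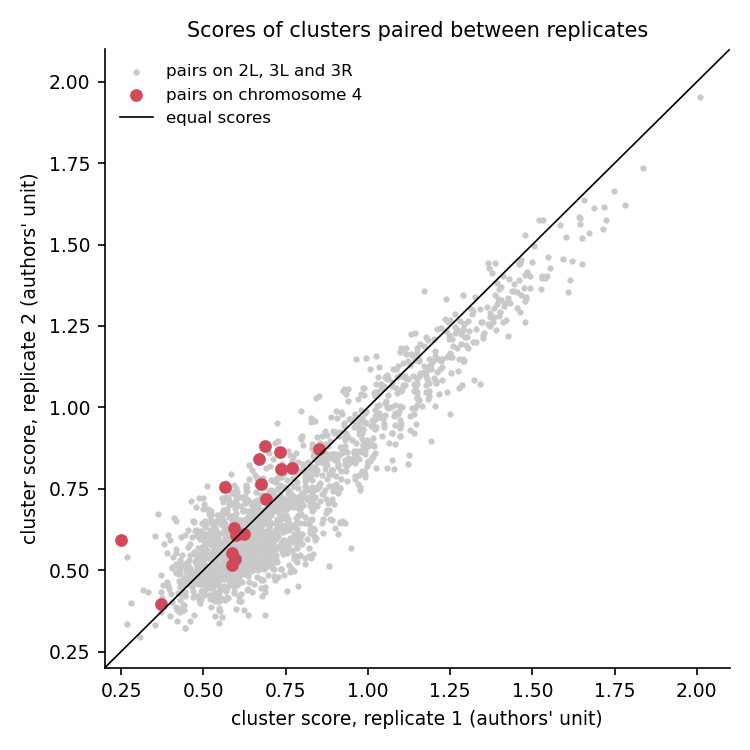
Scores in the authors' unit of clusters paired one to one between replicate 1 (x axis) and replicate 2 (y axis), on chromosome 4 (17 large points) and on 2L, 3L and 3R (1775 small points), with a line of equal scores. Of the chromosome 4 pairs 13 lie above the line, while 31.9% of arm pairs do.

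The combined list, which draws on the same libraries, added narrow clusters around the groups and few new places. Of its 214.0 kb on chromosome 4, 66.0% lay in both replicates, 17.7% in 1 replicate and 16.3% (34.8 kb) in neither, against 65.2%, 18.1% and 16.8% on the arms. Every base shared by the replicates on chromosome 4 was in it. It occupied 8 windows (2.95%) that neither replicate did, against 8.39% of arm windows. Of these 8, 6 lay in groups that the replicates also marked, and 2 marked separate places, 4:255417-256565 (score 0.352) and 4:626055-627479 (score 0.303). Both lay inside stretches that were empty in the replicates. The cluster at 4:255417-256565 lay within the longest run of empty windows of the replicates (62 and 59 windows). The longest run of the combined list, of 45 windows, was a different one, at the end of the chromosome.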

How the data were processed

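The submitters' processing notes name Bowtie 0.12.7, a short-read aligner. The positions refer to FlyBase release 5, per the file headers, and count from 1. The deposited score of a cluster is the authors' own, and its unit, the caller, the threshold and the filters are not stated. Scores were used within a list, or for pairs of overlapping clusters as a difference between lists. Inputs, which served the ChIP replicate of the same number per the labels, entered no comparison of their own. For each 5 kb window the percent of bases inside clusters was computed in each list in Python 3.11.15 (pandas 2.3.3, numpy 2.4.6, scipy 1.17.1). A window was called occupied if it held at least 1 base in a cluster. Percentages use the header lengths, with no allowance for sequence in which reads cannot be placed. Replicates were averaged as mean ± SD (n = 2).

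Named regions follow a rule: the 12 widest stretches shared by both replicates, the top-scoring cluster of each list, windows wholly covered in both replicates, and the 5 longest stretches empty in all lists. Groups, blocks, windows and clusters named beside these were chosen after their values were seen. The windows, comparisons and lists were chosen with earlier results of these data known. The window code was tested on 20 simulated lists, where the share in 1288 of 1288 windows was recovered. Alternatives were other window sizes and starts, full windows only, a 10% minimum for occupancy, the combined list, upper-scoring clusters, clusters of at least 3 kb, trimmed sequences and leaving out each replicate. Arms without their centromeric 2 Mb and clusters joined over gaps of up to 1 kb were added after the data were seen. No genome of release 5 was used here, so no sequences are printed.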

Additional observations from a re-analysis of the deposited data

How the results depend on the processing

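The ratio of occupied windows, chromosome 4 to arms, stayed under 1 in all 13 alternatives and the ratio of covered shares in all 8. With the upper-scoring part of each list they were 0.408 and 0.410, and on sequences trimmed to the span of their clusters 0.608 and 0.614, which removes the empty ends of chromosome 4. Leaving out a replicate gave 0.456 to 0.534 and 0.446 to 0.522. Covered bases of chromosome 4 (11.9% in the mean) were 15.8% with the combined list, 7.66% with upper-scoring clusters and 9.10% with clusters of at least 3 kb. Occupied windows (18.6%) were 23.6%, 10.3% and 12.7% in the same order, 15.2% with windows of 2 kb and 21.3% with windows of 10 kb. Windows at least 50% covered (11.4%) were 16.2%, 7.93% and 9.41%. Windows shared among those occupied in either replicate (80.4%) were 64.7% in the upper-scoring part. The score difference ranged from -0.0627 to -0.0236 over its 5 alternatives, which include each replicate alone and the combined list. With upper-scoring clusters (-0.0627 ± 0.0734) and clusters of at least 3 kb (-0.0547 ± 0.0648, SD, n = 2 each) the spread exceeded the value, and in the combined list these selections gave 0.0580 and 0.0488, with chromosome 4 higher. The difference in median score thus depends on the selection. The median width ratio (0.977) was 1.08 with the combined list, 1.23 with upper-scoring clusters and 1.09 after joining over gaps of up to 1 kb, so it has no fixed side of 1. Stricter lists and smaller windows lower occupancy by construction. For the other shifts the cause was not tested. Agreement between replicates could not be computed without a replicate or in the combined list. No paired analysis was possible because the ChIP replicates form a single group and the inputs entered no comparison. Depth is unknown.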
